A study of Caenorhabditis elegans with 3 samples.

Results

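The regions described here are the 632 stretches of chromosome III that were called as enriched in a LEM-2 ChIP-seq library of *C. elegans* embryos. They were taken as all entries of the LEM-2 peak list that lie on chromosome III, out of 2932 in the whole list, which is 21.6% of it. ChIP-seq is chromatin immunoprecipitation followed by sequencing, and it finds DNA that was cross-linked to the protein an antibody binds. The labels describe 3 libraries from mixed-stage embryos of the wild-type strain N2, with no mutation or treatment in any of them. The LEM-2 library was made with the rabbit polyclonal antibody SDQ3891, which was raised against the amino terminus of the protein. The control IgG library was made with the non-specific antibody AB46540, and its list holds 66 regions on chromosome III out of 415. The input DNA library was not used here. Each antibody had 1 library, and the pair was made from different extracts with different protocol versions, so antibody and extract cannot be told apart.

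LEM-2 is an integral protein of the inner nuclear membrane that carries a LEM domain, the part through which it binds the DNA-binding protein BAF-1. It depends on the nuclear lamina, the meshwork of lamins under the membrane, for its position. Chromatin found at the nuclear periphery is, in many animals, rich in repeats and poor in transcription. Whole embryos were used, so an enriched region is an average over many cell types. Fewer cells with a contact and a weaker contact per cell cannot be told apart in such a sample.

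Positions are given as deposited, with 1-based starts. The genome build of the lists is not given in the sources used here, and no sequence or gene was therefore read at these positions. The length of chromosome III was taken as the largest end on it in either list, 13742605, which makes III the shortest of the 6 chromosomes. Arms were the outer 4 Mb at each end, and the centre was the 5.74 Mb between them. Occupancy is the share of a stretch's bases that called regions cover, in percent. Intervals on occupancy are exact Poisson 95% intervals of the number of regions. They cover counting error only, treat neighbouring regions as independent and hold no replicate error. No p-value was computed, because 1 library per antibody leaves no replicates and the regions of 1 library are not replicates of each other. The lists hold no read numbers. By the published methods, the control IgG library was sequenced much less deeply than the LEM-2 library, and the part of depth in differences between the lists was not tested.

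LEM-2 regions lay almost entirely on the arms of chromosome III, and the 2 arms were nearly equal. The left arm held 300 regions and the right arm 326, whereas the centre held 6. The 632 regions covered 1.14 Mb, or 8.28% of the chromosome (interval 7.64% to 8.95%). The arms together held 98.5% of these bases, against 88.7% of the control IgG bases on III. For LEM-2 the share was 98.0% on I, 97.4% on II, 93.7% on IV and 89.1% on V. Chromosome III made up 13.8% of the sequence spanned by the lists and held 22.9% of all bases in LEM-2 regions. This was not particular to III. Chromosome I held slightly more LEM-2 bases, 1.15 Mb in 676 regions (7.68% of its length), whereas X was only 0.867% covered. Of all control IgG regions, 15.9% lay on III.

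Occupancy of the left arm was 13.1% (interval 11.7% to 14.7%) and that of the right arm 14.9% (interval 13.3% to 16.6%). The left arm was thus 1.78 percentage points below the right arm, with an approximate interval of −3.91 to 0.357 points that includes 0. Its half-width is the root of the summed squares of the distances from each arm's occupancy to its lower limit. Centre occupancy was 0.301% (interval 0.110% to 0.654%), far below both arms. With the control IgG antibody, occupancy was 0.720% on the left arm (interval 0.446% to 1.10%, 21 regions), 1.43% on the right arm (interval 0.999% to 2.00%, 35 regions) and 0.190% in the centre (interval 0.0913% to 0.350%, 10 regions). The control list therefore also leaned toward the right arm, and by a larger factor. The ratio of left to right occupancy was 0.881 in the LEM-2 list, against 0.502 in the control IgG list. Without the LEM-2 regions that overlap control IgG, a choice made after seeing the data, the LEM-2 difference was −1.19 points. The part of the control signal in it was not tested.

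**Figure D1:**
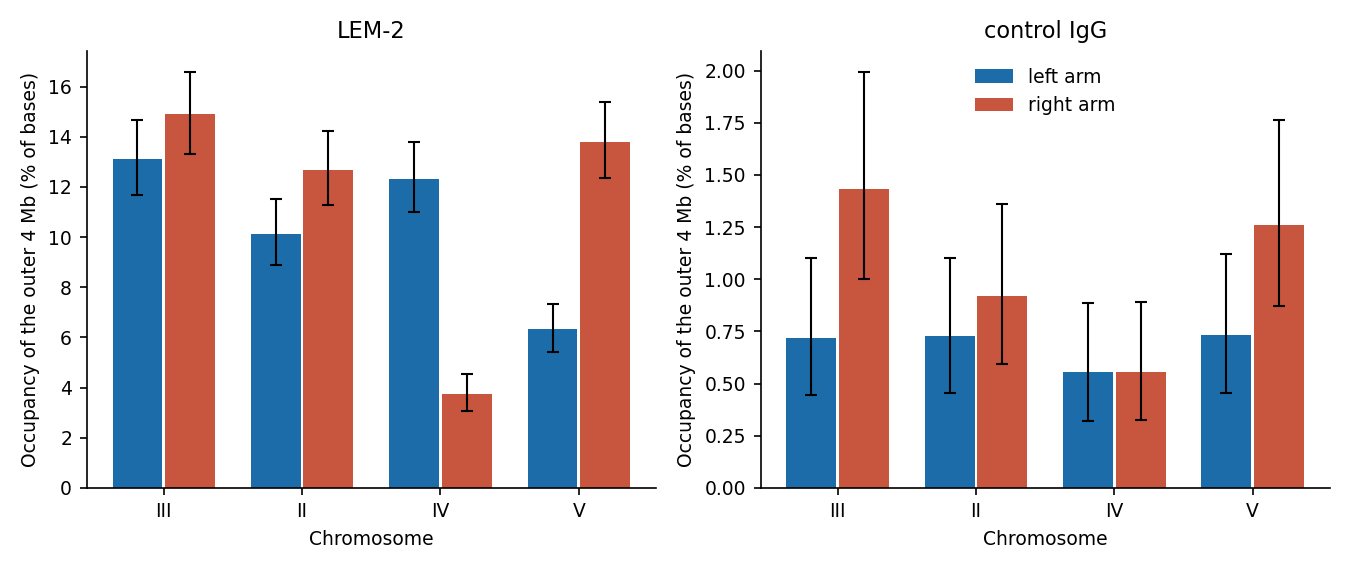
Occupancy of the left (blue) and right (red) outer 4 Mb of chromosomes III, II, IV and V by LEM-2 regions and by control IgG regions, in percent of bases. Error bars are exact Poisson 95% intervals of the number of regions, from 1 library per antibody. On III the LEM-2 bars stand at 13.1% and 14.9% with overlapping intervals, whereas on IV they stand at 12.3% and 3.75%.

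The near balance of the arms can be set beside the other autosomes. The left-minus-right difference in LEM-2 occupancy was −1.78 percentage points on III, 3.31 on I, −2.54 on II, 8.58 on IV and −7.48 on V. The difference on III was the smallest in size of the 5, although 5 single chromosomes of 1 library allow no test of it. This ranking holds for arms of 4 Mb only. With arms of 3 Mb the difference on III was −3.11 points, and the other chromosomes were not recomputed at 3 Mb. Its left arm, at 13.1%, was above the left arms of II (10.1%), IV (12.3%) and V (6.32%) and below that of I (15.8%). Its right arm, at 14.9%, was above the right arms of I (12.5%), II (12.7%), IV (3.75%) and V (13.8%). The interval of the left arm of III overlapped those of I and IV, and the interval of its right arm overlapped those of I, II and V. The centre of III held 6 LEM-2 regions, against 10 on I, 14 on II, 24 on IV and 64 on V. The centres differ in size, from 5.74 Mb on III to 12.9 Mb on V. Centre occupancy was 0.301% on III, 0.326% on I, 0.338% on II, 0.459% on IV and 0.763% on V. The interval of III, 0.110% to 0.654%, held the values of I, II and IV.

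The position profile differed between the ends. In bins of 500 kb from the left end, LEM-2 occupancy was 23.5%, 11.6%, 19.4%, 6.09%, 20.7%, 16.0%, 7.41% and 0.211%. The left arm thus alternated between rich and poor bins, with its poorest bin before 3 Mb at 1.5 to 2 Mb, where only 20 regions lay. From the right end the same bins held 9.32%, 22.7%, 20.9%, 25.4%, 17.9%, 19.7%, 2.32% and 0.848%. The right arm was low in its outermost bin and then stayed between 17.9% and 25.4% up to 3 Mb from the end. The outermost bins therefore stood in opposite order to the arms as a whole, with 65 regions on the left and 30 on the right. Control IgG leaned the same way in these bins, at 2.13% on the left (7 regions) and 0.844% on the right (2 regions). The part of the control signal in the LEM-2 order was not tested.

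**Figure D2:**
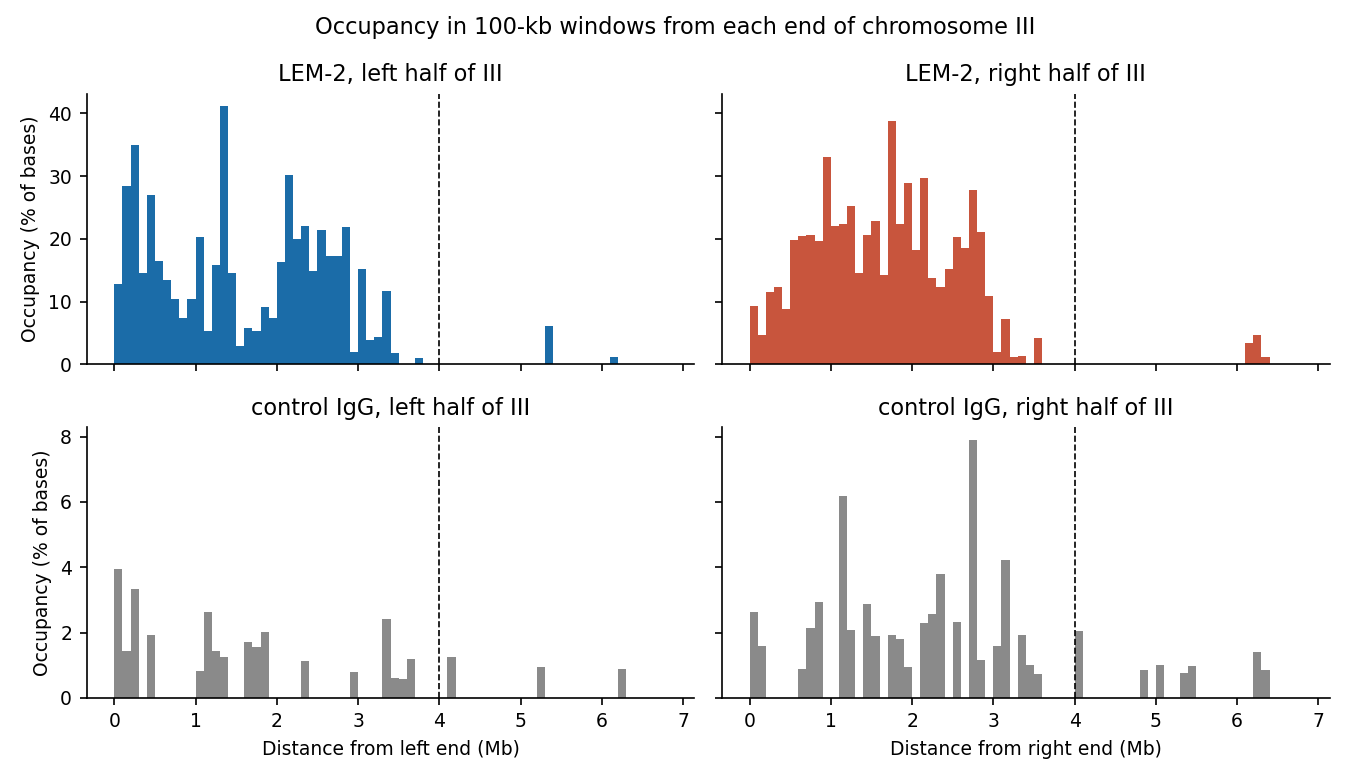
LEM-2 (top, blue and red) and control IgG (bottom, grey) occupancy in windows of 100 kb, in percent of bases, against distance from the left and the right end of chromosome III in Mb; the vertical scales of the rows differ. The dashed line marks the 4 Mb arm limit, and the middle 143 kb, which holds 1 LEM-2 region, is not drawn. LEM-2 windows reach 41.1% on the left and 38.8% on the right, and none on either arm is filled beyond 3.8 Mb.

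At finer scale, 36 of the 40 windows of 100 kb on the left arm and 35 of 40 on the right arm held LEM-2 bases. The empty windows all lay 3.4 Mb or more from an end. The median window was 13.1% occupied on the left and 14.9% on the right. Windows of 20% or more numbered 9 on the left and 15 on the right. The fullest window, from 1300001 to 1400000 on the left arm, held 23 regions and was 41.1% occupied. Its counterpart on the right, from 11942606 to 12042605, held 20 regions and was 38.8% occupied. Control IgG occupancy in these windows was 1.25% and 1.93%. The highest control window, from 10942606 to 11042605 on the right arm, had a control occupancy of 7.90% and was also rich in LEM-2 regions, at 27.8%.

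The inner edges of the arms were similar but not identical. The point by which 50% of an arm's LEM-2 bases had been reached lay 1.45 Mb from the left end and 1.69 Mb from the right end. The point for 90% lay at 2.85 Mb on the left and 2.77 Mb on the right. For control IgG the 50% points were 1.24 Mb and 2.12 Mb, and the 90% points 3.39 Mb and 3.11 Mb. The innermost left-arm region ran from 3770026 to 3771082 with a score of 59.44, and 343 kb without any LEM-2 region separated it from its outer neighbour at 3426534 to 3427490. The innermost right-arm region ran from 10167267 to 10168386 with a score of 55.74. Both edge regions scored close to the lowest score on the chromosome, 50.02. The outermost regions lay at 48735 to 51178 on the left, scoring 216.23, and at 13740734 to 13742605 on the right, scoring 173.90. That last region also set the right limit of the chromosome used here, so distances from the right end are counted from it.

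Between the innermost regions of the arms lay 6.40 Mb, or 46.5% of the chromosome, in which 6 LEM-2 regions covered 17.3 kb (0.270%). In the same stretch 11 control IgG regions covered 11.7 kb (0.182%). Fewer LEM-2 than control IgG regions thus lay in this stretch, although the LEM-2 list was the larger one and covered more bases there. The stretch was bounded by LEM-2 regions, so it was drawn to be poor in them. In the fixed centre the numbers were 6 LEM-2 and 10 control IgG regions. The part of non-specific enrichment in these 6 regions was not tested. The 6 LEM-2 regions lay at 5352696 to 5358862, 6185184 to 6186279, 6919339 to 6920304, 7416072 to 7417178, 7443916 to 7448517 and 7594234 to 7597560.

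The central regions included strong and long ones. The region at 5352696 was 6167 bp long and scored 3100, with no LEM-2 region for 1582 kb on its left and 826 kb on its right. The region at 7443916 was 4602 bp long and scored 560.28, and the region at 7594234 was 3327 bp long and scored 319.86. The other 3 were 966 to 1107 bp long and scored 53.52 to 131.96. The last 3 regions lay closest together, separated by gaps of 26.7 kb and 146 kb. A control IgG region at 7452048 to 7453439 stood 3.53 kb from the LEM-2 region at 7443916. None of the 6 overlapped a control IgG region, a count that allows a share of up to 50% (3 counts of the total; the Wilson upper limit is 39.0%).

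The longest gap between LEM-2 regions of the chromosome ran from 7597561 to 10167266 and measured 2.57 Mb, or 18.7% of the chromosome. It held 6 control IgG regions. Its midpoint lay at 64.6% of the chromosome, so the gap was displaced to the right and entered the right arm. The next stretch, from 3771083 to 5352695, was 1.58 Mb long and held 2 control IgG regions. The following 3 measured 826 kb, 733 kb and 496 kb and were separated by single LEM-2 regions. The longest gap was 2.61 Mb on I (17.4% of the chromosome), 5.19 Mb on II (34.0%), 3.38 Mb on IV (19.4%) and 5.37 Mb on V (25.7%), so the gap of III was close in length to that of I and took up a slightly larger share. On III, 10 gaps of 100 kb or more added up to 7.12 Mb, which is 51.8% of the chromosome.

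**Figure D3:**
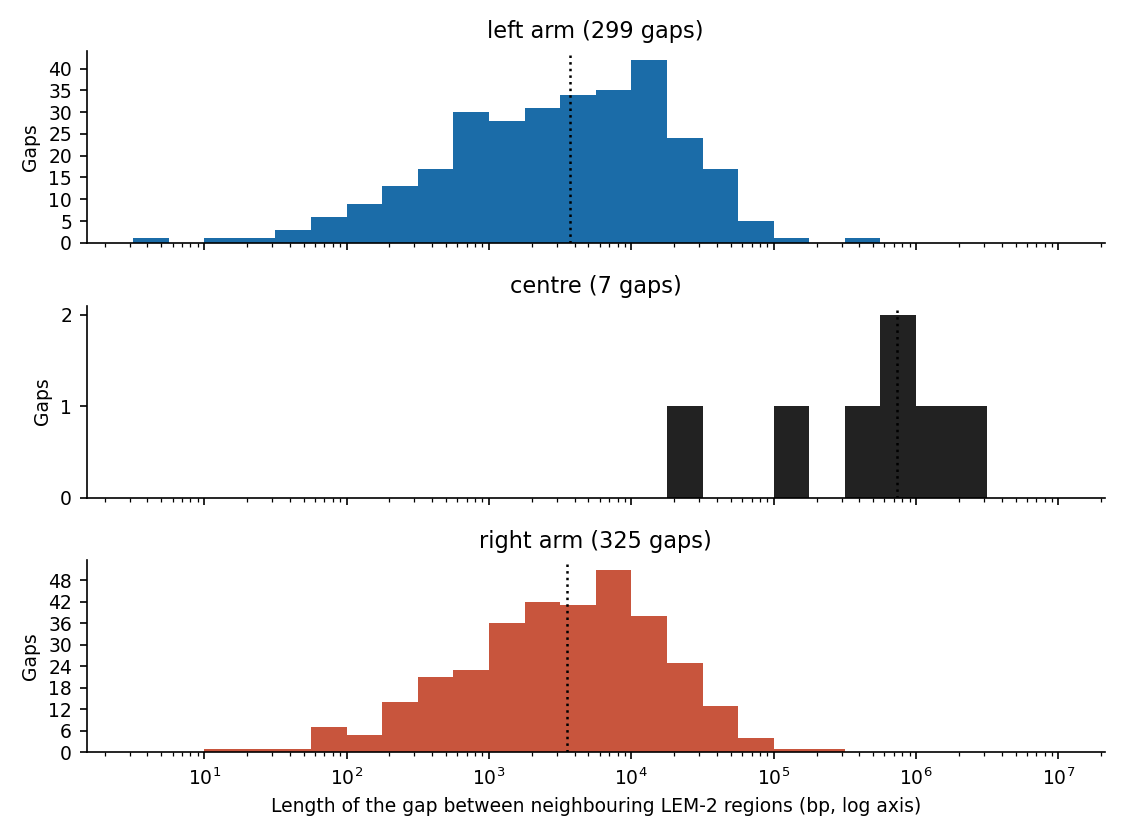
Number of gaps between neighbouring LEM-2 regions of chromosome III by gap length (bp, log axis), for the left arm, the centre and the right arm. The dotted line is the median of each panel. The arms have similar medians, 3699 bp on the left and 3520 bp on the right, whereas the 7 gaps of the centre have a median of 733 kb.

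Within the arms LEM-2 regions were closely spaced. The median gap was 3699 bp on the left arm (299 gaps, quartiles 934.5 and 12106.5 bp) and 3520 bp on the right arm (325 gaps, quartiles 1141 and 10011 bp). This order of the arms was not stable, since among regions with a score of at least 100 the median gap was 6127 bp on the left arm and 8790 bp on the right arm. Of the 631 gaps on chromosome III, 452 (71.6%) were shorter than 10 kb, against 67.1% of the gaps in the whole LEM-2 list. The share was 69.9% on the left arm and 74.8% on the right arm. On the left arm 27.1% of the gaps were under 1 kb, and on the right arm 22.5%. The left arm thus had more of the shortest gaps and also more gaps of 10 to 100 kb, 88 against 80, whereas the right arm had more of intermediate length, 170 against 128 between 1 and 10 kb. The shortest gap was 5 bp, and 22 gaps were under 100 bp, so some regions almost touch. The control IgG regions were far apart, with 33 of their 65 gaps on III between 100 kb and 1 Mb.

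Regions separated by less than 10 kb were joined into runs to describe their clustering. The 632 regions formed 180 runs, of which 123 held more than 1 region. These 123 runs contained 575 regions, or 91.0% of them. Multi-region runs had a median length of 12.1 kb on the left arm and 14.2 kb on the right arm. The longest run, from 11963041 to 12051397 on the right arm, spanned 88.4 kb and held 22 regions that filled 46.7% of it. The next, from 12731403 to 12813897, spanned 82.5 kb and held 23 regions. The longest run of the left arm spanned 63.7 kb, from 1299205 to 1362904, and held 17 regions that filled 53.0% of it. Of the 13 runs longer than 40 kb, 6 were on the left arm and 7 on the right arm. All 6 regions of the centre stood alone.

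LEM-2 regions on III were narrow as called, with a median length of 1375.5 bp and quartiles of 1078 and 2121.25 bp. From array and sequencing signal in sliding windows, the paper defined LEM-2 subdomains that are far longer. Lengths, gaps and occupancy here thus depend on the peak calling and do not measure the width of a contact. The median was 1302.5 bp on the left arm and 1513 bp on the right arm, and the quartiles overlapped widely, at 1068.75 to 2077.25 bp and 1095.5 to 2138.5 bp. Regions of 3000 bp or more numbered 33 of 300 on the left arm and 38 of 326 on the right arm, which are nearly equal shares. The 10 longest regions were 5733 to 8175 bp long, with 4 on the left arm, 5 on the right arm and 1 in the centre. The longest ran from 1256958 to 1265132 on the left arm. The second, from 10969829 to 10977777 on the right arm, was 7949 bp long. The third, from 517021 to 524750 on the left arm, was 7730 bp long but scored only 69.21, below the median of the chromosome.

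The score that MACS gives to each peak grows as its p-value shrinks, and it was compared within the LEM-2 list only. The typical score did not separate the arms, but the highest scores did. The median was 101.885 on the left arm and 103.37 on the right arm, with upper quartiles of 162.4025 and 155.9. The highest score was 3100 on the left arm and 452.22 on the right arm, where it belonged to a region at 12793287 to 12795764. That region ranked only 20th on the chromosome. Of the 10 highest-scoring regions, 9 were on the left arm, 1 was in the centre and 0 were on the right arm.

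**Figure D4:**
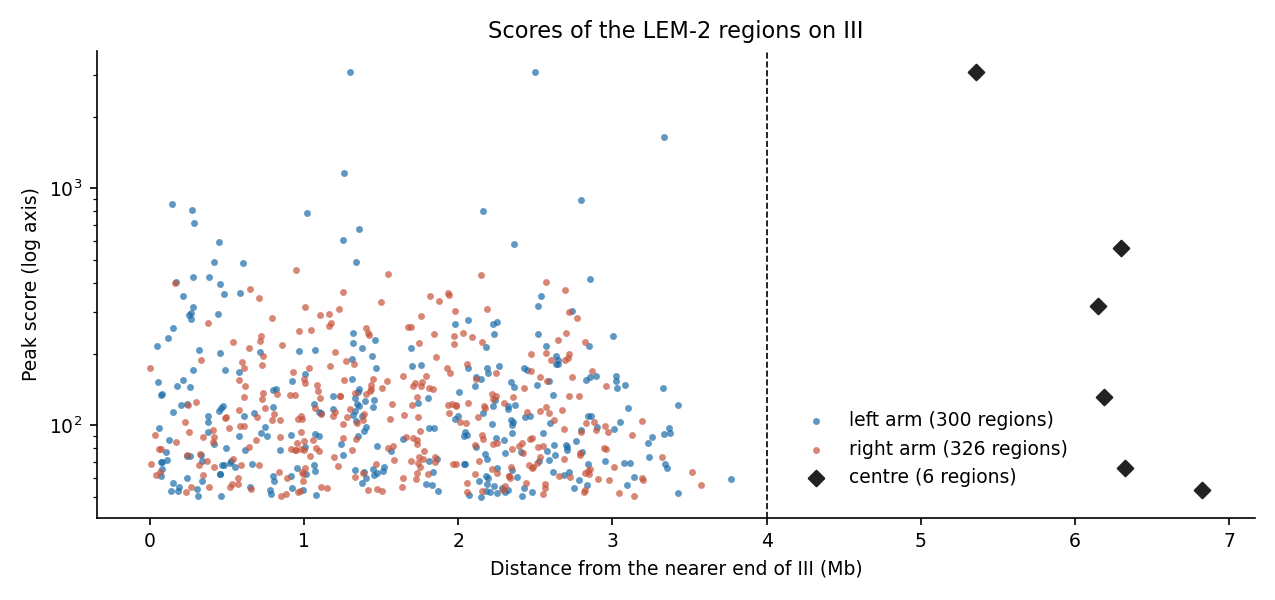
Peak score (log axis) of each LEM-2 region of chromosome III against its distance from the nearer end in Mb, with left-arm regions in blue, right-arm regions in red and central regions as black diamonds. All right-arm points stay at or below 452.22, whereas left-arm points reach 3100 and 1 central region also stands at 3100.

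The regions with the highest scores were spread along the left arm. At the top, 3 were tied, out of 6 with this same score in the whole list, so their order carries no information. They lay at 1299205 to 1303487 (4283 bp), at 2496526 to 2503111 (6586 bp) and at 5352696 in the centre, each with a score of 3100. The next was the region at 3334170 to 3337436, which scored 1648.89 and lay 3.34 Mb from the left end, near the inner edge of the arm. The longest region of the chromosome, at 1256958, scored 1164.04 and lay 34.1 kb from the tied region at 1299205. The other 5 of the 10 scored 789.60 to 889.25, and they lay at 142788, 272221, 1016612, 2157234 and 2797261.

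Scores of 500 or more, a class chosen after the scores were seen, belonged to 16 regions of III, or 2.53%, against 2.25% of the whole LEM-2 list. Of these, 14 were among the 300 regions of the left arm (4.67%, Wilson 95% interval 2.80% to 7.68%), 2 were in the centre and 0 were among the 326 of the right arm, which allows a share of up to 0.920% (3 counts of the total; the Wilson upper limit is 1.16%). With a limit of 300 the arms were closer. On the left arm 29 regions reached it (9.67%, interval 6.82% to 13.5%), and on the right arm 19 did (5.83%, interval 3.76% to 8.92%). On the whole chromosome 51 regions reached 300 (8.07%), against 6.38% of the whole list. The direction differed among II, IV and V. Scores of 500 or more were found for 0 left-arm and 9 right-arm regions on II, for 6 and 0 on IV and for 4 and 1 on V. Chromosome I was not counted by score class. Its highest scores were 2808.57 on the left arm and 3100 on the right arm.

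Longer LEM-2 regions tended to have higher scores. Spearman's rank correlation across the 632 regions was 0.56, and it was 0.63 across the 300 regions of the left arm and 0.48 across the 326 of the right arm. The regions share a library, a depth and a caller, so these values describe the list. From the shortest to the longest of 4 length classes of nearly equal size, the median score was 70.18, 89.38, 114.175 and 175.015. On II, IV and V the same correlation was 0.42, 0.46 and 0.47. Regions in fuller surroundings scored little higher, with a rank correlation of 0.12 between score and the other LEM-2 bases within 50 kb.

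**Figure D5:**
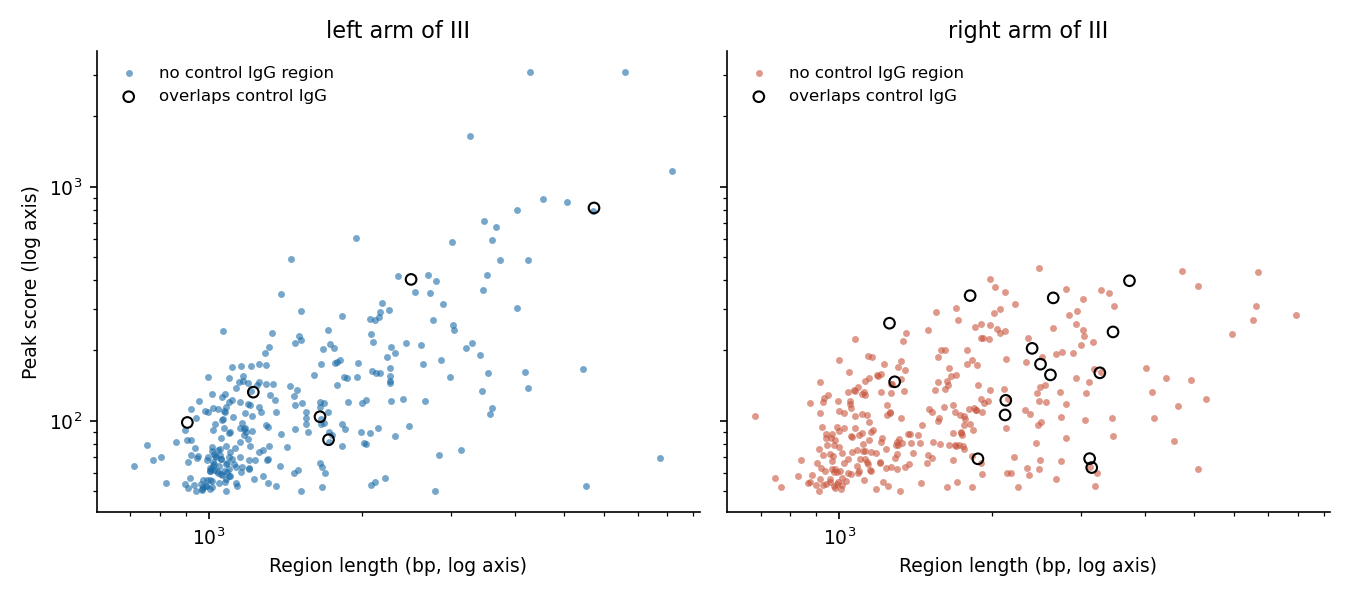
Peak score against region length (both log axes) for the LEM-2 regions of the left and the right arm of chromosome III; open circles are regions that overlap a control IgG region. Score rises with length on both arms (rank correlation 0.63 and 0.48), and 6 circles stand on the left arm and 15 on the right arm.

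The overlap of LEM-2 regions with the control IgG list was also counted. That list is short and its library was shallower, so the overlap cannot show the full extent of non-specific enrichment. On chromosome III 21 of the 632 LEM-2 regions (3.32%, Wilson 95% interval 2.18% to 5.03%) overlapped a control IgG region by at least 1 bp, close to the 3.58% of the whole LEM-2 list. The number was 6 of 300 on the left arm (2.00%, interval 0.920% to 4.29%) and 15 of 326 on the right arm (4.60%, interval 2.81% to 7.45%). The overlapping regions were longer than the others, with medians of 2399 and 1348 bp. A longer region has more room to meet a control region by 1 bp, and the part of this in the length difference was not tested. The overlapping regions also had a higher median score, 157.38 against 102.1. Score went with length across all regions as well, and the part of length in the score difference was not tested. Of the 10 highest-scoring LEM-2 regions 1 overlapped a control region. It was the region at 272221 to 277953, which scored 812.20, was also the only one of the 10 longest to overlap one, and contained the whole control region at 273364 to 276684. The 3 regions tied at 3100 overlapped none, and the nearest control region lay 35.6 kb, 191 kb and 141 kb away.

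In the opposite direction, 23 of the 66 control IgG regions on III overlapped a LEM-2 region (34.8%, Wilson 95% interval 24.5% to 46.9%), against 25.8% of the whole control list. They were 6 of 21 on the left arm (28.6%, interval 13.8% to 50.0%) and 17 of 35 on the right arm (48.6%, interval 33.0% to 64.4%). LEM-2 regions also occupied slightly more of the right arm, and the part of occupancy in this difference was not tested. In the centre the number was 0 of 10, which allows a share of up to 30% (3 counts of the total; the Wilson upper limit is 27.8%). The right arm's overlaps included 3 neighbouring control regions between 11000587 and 11003280 that lay in a single LEM-2 region at 11000540 to 11003801. Control IgG regions without overlap lay a median of 19.8 kb from the nearest LEM-2 region on the left arm, 8.46 kb on the right arm and 409 kb in the centre.

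Control IgG scores on III ran from 50.24 to 183.70 with a median of 61.465, and they were not compared with LEM-2 scores. The highest-scoring one, at 167936 to 169372 on the left arm, lay inside a LEM-2 region at 167786 to 170285 that scored 402.30. The next, at 13031955 to 13033278 on the right arm, scored 155.44 and also lay inside a LEM-2 region. The longest, at 12612155 to 12617260 on the right arm, was 5106 bp long, and the nearest LEM-2 region was 11.2 kb away. A control region of 652 bp also began at the first base of the chromosome, where no LEM-2 region was called within 48.1 kb. The 10 control regions of the centre scored 51.41 to 74.51, below the strongest control regions of both arms.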

How the data were processed

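Libraries came from mixed-stage N2 embryos. The deposited lists give 1 region per line with a score, which MACS by convention writes as −10 times the log10 p-value. The region names show that the authors called them with MACS, and BWA is named in the submitters' processing notes. Versions, settings and the build of the lists are not given in the sources used here. Coordinates are as deposited by the authors, and 1 start below 0 on III in the control IgG list was set to base 1.

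Computations used Python 3.11.15, numpy 2.4.6, pandas 2.3.3, scipy 1.17.1 and matplotlib 3.10.9. Regions and gaps were assigned to arms by midpoint. Interval arithmetic was checked on simulated lists with known answers. The regions, limits and alternatives were chosen with earlier results of these data known. Named regions were the 10 highest-scoring and 10 longest LEM-2 regions, the outermost and central ones, the 5 longest gaps and runs, and the 5 longest and highest-scoring and the central control IgG regions; of these the ones that bear on a result are printed. Alternatives were a score of at least 100, the higher-scoring 50% of each list, joining within 1 kb, arms of 3 or 5 Mb, other overlap rules and numbers instead of bases.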

Additional observations from a re-analysis of the deposited data

How the results depend on the processing

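Of 62 alternative values for 12 results, 35 stayed within the interval of the reported value (for numbers of regions, within 1.5 times; for the difference per Mb, on the same side of 0), 27 went beyond and 0 changed sign. Only the difference between the arms and the rank correlation could change sign, because the other results cannot be negative. The turned order of the arms in median gap, given below, is not counted as a change of sign. The left arm stayed below the right arm under every alternative tried, with differences of −3.11 to −0.833 percentage points, and by 6.5 regions per Mb when numbers replaced bases. All alternatives re-use the same regions of 1 library, so the shared sign is no independent support for this order, whose interval includes 0. No LEM-2 region lay 4 to 5 Mb from either end, so arms of 5 Mb could not change the order. Leaving out LEM-2 regions that overlap control IgG was an alternative chosen after seeing the data; it gave a difference of −1.19 points and moved no result beyond these limits.

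Stricter scores lower numbers by construction. With a score of at least 100 (in brackets, with only the upper 50% of scores in each list), 325 (357) regions covered 5.17% (5.51%) of III, 8.19% (8.86%) of the left arm and 9.19% (9.69%) of the right arm. The longest gap was 2951893 bp under both choices and the median length 1841 (1786) bp. The number overlapping control IgG was 3 (7), but both cuts were also applied to the control list and shortened it. Against the full control list, 5 of the 51 LEM-2 regions with a score of at least 300 overlapped, and 16 of the 581 below 300. Longer regions tended to score higher, and the part of length in these shares was not tested. Under the stricter scores the median gap was 6127 (5478.5) bp on the left arm and 8790 (8622) bp on the right arm. The order of the arms in spacing thus turned round. Without the overlapping regions the median gap was 3747 and 3829 bp. The cause was not tested.

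Joining within 1 kb gave median gaps of 7387 bp on the left arm and 6043 bp on the right arm, a median length of 1805.5 bp and a rank correlation of length and score of 0.62. Arms of 3 Mb had occupancies of 16.2% on the left and 19.3% on the right and left 0.920% in the centre, and arms of 5 Mb had 10.5% and 11.9%, because few regions lie beyond 3 Mb.

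No paired analysis was possible because the libraries had no replicates, and for that reason none was left out. The control IgG library was the shallower one, and the effect of depth on the number of its weak regions was not tested.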
